A study of Mus musculus with 6 samples.

Results

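A set of 10 genes of IL1, TNF and Toll-like receptor signaling was examined in primary uterine stromal cells of the mouse that did or did not carry a conditional deletion of Pbrm1, which encodes a protein of the SWI/SNF chromatin remodeling machinery. They are the cytokines Il1a, Il1b, Il33 and Tnf, the IL1 receptor antagonist Il1rn, the receptors Il1r1, Tlr2 and Tlr4, and the NF-kB inhibitors Nfkbia and Tnfaip3. The genes were chosen by name for their roles, with earlier results of these data known. All 10 were found among the 54232 genes of the count table and passed the filter on low counts. RNA-seq was performed on 3 WT and 3 Pbrm1 cKO samples. The Pbrm1 cKO females carried Pbrm1 fl/fl and PR-IRES-cre/+, so that Cre was driven from the progesterone receptor locus, which is active in uterine epithelium as well as in stroma. Control samples are named WT in the labels and Pbrm1 fl/fl without Cre in the study's methods, and both groups were 8 to 12 weeks old. Cells were taken on D4 of pseudopregnancy from 5 to 10 uterine horns pooled per preparation, digested with enzymes, plated, given new medium after 4 hours and harvested 2 hours later. The study calls the replicates biological but does not say which animals each one held, so p-values measure the spread between these samples only.

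IL1 alpha and IL1 beta bind the same receptor, Il1r1, and Il1rn occupies that receptor without activating it. Toll-like receptors recognize microbial molecules, and they share with the IL1 receptor a cytoplasmic domain that recruits the adaptor Myd88. These receptors and those of TNF lead to the IKK kinases, which release NF-kB from its inhibitors, and NF-kB in turn induces Nfkbia and Tnfaip3, which end the signal. Both macrophages and stromal fibroblasts of the uterus can express genes of this pathway.

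Stretches of the promoters of Il1a, Il1rn, Nfkbia and Tnfaip3 are shown because NF-kB and AP-1 are the textbook factors of this pathway. Windows from 250 bases before to 50 bases after each RefSeq start (GRCm38.p6) were searched on both strands for the NF-kB letters, GGG followed by NN and TTTCC, and for the AP-1 letters, TGANTCA, which do not overlap each other in any window described here. Entries were matched for 9 of the 10 genes, Tlr4 being the other. Among all 32544 windows of 27025 genes, 525 (1.61%) held the NF-kB letters and 2535 (7.79%) held the AP-1 letters. The lines give the gene, the letters matched, the position and strand, and the sequence 5′ to 3′ on the gene's strand with the match in capitals.
Il1a, AP-1, chr2:129309968-129309994, minus strand: cagagaagccTGACTCAgacttaagtc
Il1rn, AP-1, chr2:24336709-24336735, plus strand: tctgctagacTGAGTCAcgcctctgga
Il1rn, NF-kB, chr2:24345310-24345339, plus strand: ggaaatatgaGGGTTTTTCCgcttctgaca
Nfkbia, NF-kB, chr12:55492657-55492686, minus strand: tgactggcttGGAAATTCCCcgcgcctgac
Tnfaip3, NF-kB, chr10:19015403-19015432, minus strand: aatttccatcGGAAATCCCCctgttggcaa
Tnfaip3, AP-1, chr10:19015530-19015556, minus strand: aatgcccaggTGACTCAcgcggggaca

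The NF-kB letters of Nfkbia lie 29 to 20 bases before its start and those of Tnfaip3 lie 12 to 3 bases before the start of its outer window, which lies inside the GENCODE gene model. In Il1rn they lie 51 to 42 bases before 1 RefSeq start and 30 to 39 bases after another, while its AP-1 letters lie at the outermost start, 141 to 135 bases upstream. The AP-1 letters of Il1a lie 12 to 6 bases before its start. Neither set of letters was found in the windows of Il1b, Il1r1, Il33, Tnf and Tlr2, which says only that these exact letters are not in those windows. The 250 bases before the start of Nfkbia, the gene with the highest level per length of the 10, are printed in full so that its match can be seen in place (chr12:55492648-55492897, minus strand, match in capitals).
Nfkbia upstream: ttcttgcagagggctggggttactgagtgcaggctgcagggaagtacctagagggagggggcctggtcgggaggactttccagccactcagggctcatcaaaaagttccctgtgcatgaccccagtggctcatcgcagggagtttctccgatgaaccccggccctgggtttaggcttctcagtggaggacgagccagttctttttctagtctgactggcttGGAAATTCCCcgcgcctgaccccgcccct

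Total counts ranged from 13253575 to 18338667 per library, and 3 counts correspond to 0.164 to 0.226 CPM (counts scaled to the library total), the level that a count of 0 allows. Intervals and limits of this kind cover counting error only. Pbrm1 itself had normalized counts (counts divided by the size factor of the library) of 1354, 1385 and 1677 in WT and 396.6, 458.6 and 451.3 in Pbrm1 cKO, which is 29.6% of the WT mean, so the libraries match their labels. The first principal component separated the groups (90.6% of the variance) and on the second (7.39%) WT replicate 1 stood away from WT replicates 2 and 3.

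Of the 10 genes, 7 differed between the groups at an adjusted p of 0.05 (DESeq2, Benjamini-Hochberg over 17474 genes), a share of 70.0% beside 31.1% of all genes tested. Il1r1, Il1rn, Tnf, Nfkbia, Tnfaip3 and Tlr2 were higher in Pbrm1 cKO, as were 15.9% of all genes, and Tlr4 was lower, as were 15.2% of all genes. Il1a, Il1b and Il33 were not called. Without WT replicate 1, the same 6 genes were higher, and Il1b joined Tlr4 among the lower ones. In 8 of the 10 genes the 3 WT and the 3 Pbrm1 cKO values did not overlap, which held for 48.6% of all genes. The median log2 fold change of the 10 genes was 1.02, or 0.85 with Il33 set against its limit of 3 counts, and that of all genes was -0.001.

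**Figure D1:**
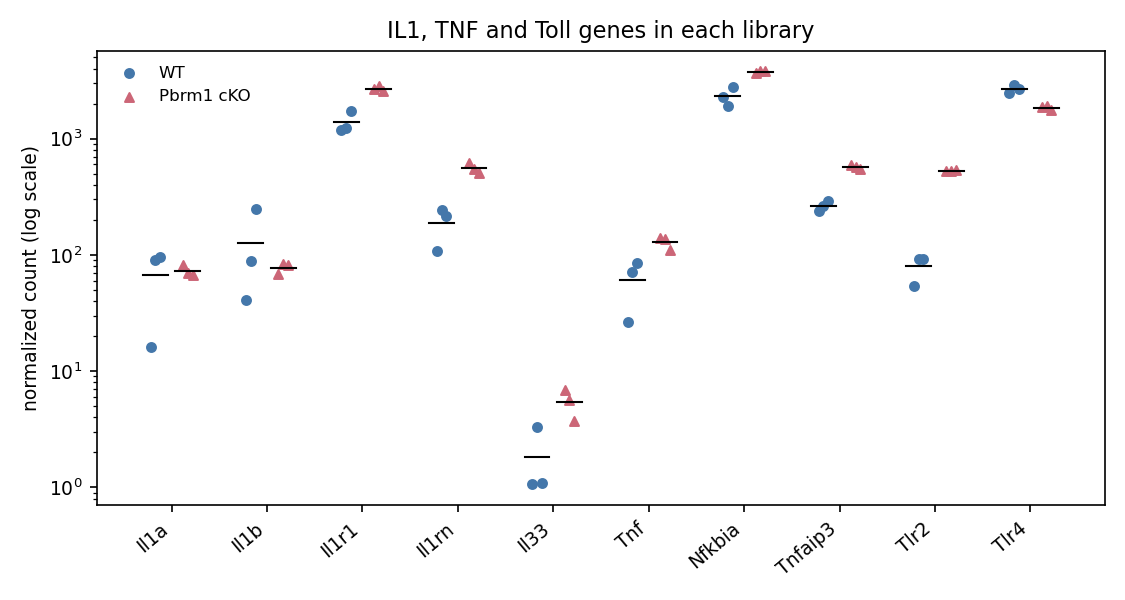
Normalized count (log axis) of each of the 10 genes in the 3 WT libraries (circles) and the 3 Pbrm1 cKO libraries (triangles), with horizontal bars at the group means. Tlr2 shows the widest gap, from at most 93.0 in WT to at least 525.8 in Pbrm1 cKO, whereas Il1a and Il1b overlap between the groups.

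Leukocyte genes moved with the genotype, and their values stand here because several of the 10 genes are abundant in macrophages. All 8 pan-leukocyte markers and all 10 macrophage markers were higher in Pbrm1 cKO, with median log2 fold changes of 1.98 and 2.22. The summed level of the macrophage markers was 235 to 565 CPM in WT and 2070 to 2220 CPM in Pbrm1 cKO, with the lowest value in WT replicate 1, and the ratio of the group means was 4.74, or 3.83 without that library. Pan-leukocyte markers summed to 80.4 to 184 CPM in WT and 552 to 572 CPM in Pbrm1 cKO. The receptor Csf1r, which macrophages need to survive, rose 6.04-fold, and Lyz2, the lysozyme of macrophages and neutrophils, rose 4.75-fold.

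Markers of other blood cells were sparse. Neutrophil markers summed to 1.95 to 2.49 CPM in WT and 10.6 to 11.6 CPM in Pbrm1 cKO, with Cxcr2 and Ngp at 0 and Ly6g and Camp at 3 counts or fewer in every library. Of 3 tested neutrophil markers, 2 were higher (Csf3r 8.93-fold and S100a8 2.71-fold) and 1 was not called. T and NK cell markers reached at most 0.586 CPM in WT and 3.50 CPM in Pbrm1 cKO, and B cell markers at most 1.10 CPM in any library. Of 3 tested T and NK cell markers, 1 was higher (Cd3g, raw counts of 1 to 3 in WT and 25 to 40 in Pbrm1 cKO). Dendritic cell markers summed to 12.2 to 15.3 CPM and 24.0 to 25.9 CPM, with Xcr1 at 0. Of 2 tested dendritic cell markers, Itgax rose 14.7-fold and Zbtb46 was not called. The 12 stromal markers, which define the labelled cell type, were abundant in every library, at 6990 to 8070 CPM in WT and 5310 to 5610 CPM in Pbrm1 cKO, and 7 of them were lower and 1 higher. Epithelial markers summed to 115 to 187 CPM and 199 to 211 CPM, and 3 of 9 tested (Krt8, Krt19 and Cdh1) were higher. Endothelial markers summed to 98.7 to 277 CPM and 81.0 to 89.3 CPM, and 2 of 7 (Cdh5 and Emcn) were lower, a count that was 6 without WT replicate 1 and 1 without any other single library. Smooth muscle markers summed to 3670 to 3940 CPM and 3570 to 3710 CPM, and 3 of 6 tested (Des, Cnn1 and Acta2) were lower. Called markers of these lists, and those given as at or near 0 counts, were named after their values were seen. In such bulk samples, more cells of a type and more RNA per cell cannot be told apart, and the part of these cells in the results that follow was not tested.

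**Figure D2:**
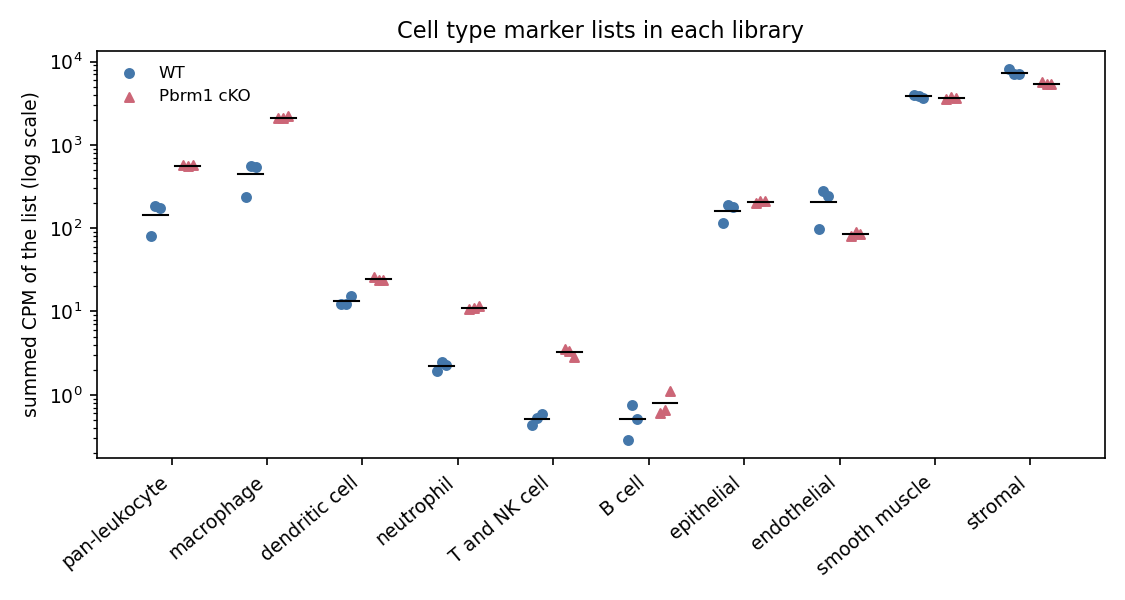
Summed CPM (log axis) of each cell type marker list in the 3 WT libraries (circles) and the 3 Pbrm1 cKO libraries (triangles), with bars at the group means. The macrophage list lies between 235 and 565 CPM in WT and between 2070 and 2220 CPM in Pbrm1 cKO, and the stromal list is the most abundant in both groups.

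The IL1 receptor agonists showed no called change. Il1a (ENSMUSG00000027399.1, chr2:129299610-129309972, minus strand, build GRCm38 as for all genes below), the form of IL1 that also acts from inside or on the surface of the cell, had normalized counts of 16.0, 89.9 and 96.2 in WT and 81.9, 70.3 and 66.6 in Pbrm1 cKO. WT replicate 1 was far below every other library, and the remaining 5 lay close together. The group means were 67.4 ± 44.6 and 72.9 ± 7.97 (SD, n = 3 each), with a log2 fold change of 0.11 (SE 0.47, DESeq2 adjusted p = 0.897). Without WT replicate 1 the direction turned (log2 fold change -0.35, adjusted p = 0.333).

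Il1b (ENSMUSG00000027398.13, chr2:129364570-129371139, minus strand), the secreted form that requires cleavage by caspase-1, had normalized counts of 40.6, 88.8 and 248.6 in WT and 68.1, 83.1 and 82.6 in Pbrm1 cKO. The WT libraries spread widely on both sides of the Pbrm1 cKO libraries, which clustered. The means were 126 ± 109 and 77.9 ± 8.53 (log2 fold change -0.69, SE 0.72, DESeq2 adjusted p = 0.530). This value depended on which WT library was left out, since it was -1.12 without WT replicate 1 (adjusted p = 0.00636) and 0.27 without WT replicate 3 (adjusted p = 0.652).

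Il33 (chr19:29925114-29960718, plus strand), the nuclear alarmin of the IL1 family, was close to the limit of detection. Its raw counts were 1, 3 and 1 in WT and 7, 7 and 4 in Pbrm1 cKO. The counts did not overlap, but the difference was not called (DESeq2 adjusted p = 0.310), and no fold is given for counts this low.

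Il1rn (ENSMUSG00000026981.15, chr2:24336853-24351494, plus strand), whose AP-1 and NF-kB letters are printed above, rose. Its normalized counts were 109.0, 243.1 and 215.1 in WT and 612.7, 543.3 and 507.6 in Pbrm1 cKO. All 3 Pbrm1 cKO libraries lay above all WT libraries. The means were 189 ± 70.7 and 554.5 ± 53.4, a 2.93-fold rise (log2 fold change 1.55, SE 0.24, DESeq2 adjusted p = 1.74e-09). Without WT replicate 1, the lowest library, the log2 fold change was 1.27.

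Antagonist and agonist were then compared within each library. Per length, the ratio of Il1rn to Il1b was 0.917, 0.939 and 0.298 in WT and 3.08, 2.24 and 2.11 in Pbrm1 cKO. Length is that of all exons of the gene together (5535 bases for Il1rn and 1907 for Il1b), and which transcript leads in WT depends on it, since the ratio of counts alone was 2.68, 2.74 and 0.865 in WT and 9.0, 6.54 and 6.15 in Pbrm1 cKO. On either scale all 3 Pbrm1 cKO libraries lay above 1 and above all WT libraries. The log2 ratio was higher by 1.94 in Pbrm1 cKO (two-sided exact permutation p = 0.1, the smallest that 3 against 3 allows, 0.13 adjusted over the 4 ratios computed). The ratio of Il1b to Il1a overlapped between the groups, at 1.02 to 2.67 in WT and 0.862 to 1.28 in Pbrm1 cKO (exact permutation p = 0.3).

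**Figure D3:**
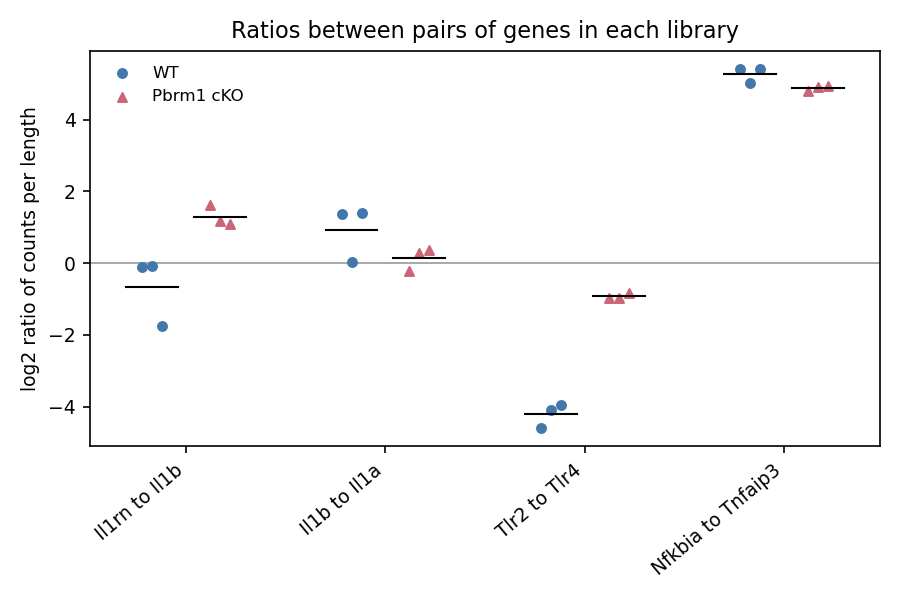
Log2 ratio of counts per length for 4 pairs of genes in the 3 WT libraries (circles) and the 3 Pbrm1 cKO libraries (triangles), with bars at the group means. The ratio of Il1rn to Il1b is higher in all Pbrm1 cKO libraries than in all WT libraries, its position against 0 in WT depending on the gene lengths used, and the ratio of Tlr2 to Tlr4 is higher by 3.29 in Pbrm1 cKO.

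The signaling receptor Il1r1 (ENSMUSG00000026072.12, chr1:40225080-40317257, plus strand) rose as well. Its normalized counts were 1192, 1227 and 1730 in WT and 2695, 2818 and 2560 in Pbrm1 cKO, without overlap. The means were 1383 ± 301 and 2691 ± 129 (1.95-fold, log2 fold change 0.96, SE 0.15, DESeq2 adjusted p = 1.41e-09). Other genes of the receptor complex were chosen after their values were seen. Il1rap, the accessory chain of Il1r1, was lower (log2 fold change -0.41, DESeq2 adjusted p = 0.0177), a call that was lost without WT replicate 2, Pbrm1 cKO replicate 1 or Pbrm1 cKO replicate 3 (adjusted p = 0.118, 0.0707 and 0.132).

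Tnf (ENSMUSG00000024401.14, chr17:35199381-35202007, minus strand), the trimeric cytokine of macrophages and other cells, had normalized counts of 26.7, 71.0 and 85.4 in WT and 141.1, 138.2 and 109.8 in Pbrm1 cKO. The groups did not overlap, and WT replicate 1 was again the lowest library. The means were 61.1 ± 30.6 and 129.7 ± 17.3 (2.13-fold, log2 fold change 1.09, SE 0.35, DESeq2 adjusted p = 0.00752). Without WT replicate 1 the log2 fold change was 0.73 (adjusted p = 0.0142), and the call was lost without Pbrm1 cKO replicate 1 (adjusted p = 0.0741) or 2 (0.0716).

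Tlr2 (ENSMUSG00000027995.10, chr3:83836272-83841767, minus strand), the receptor for bacterial lipopeptides, showed the highest log2 fold change of the 10 genes. Its normalized counts were 54.5, 92.1 and 93.0 in WT and 526.8, 525.8 and 535.8 in Pbrm1 cKO. The Pbrm1 cKO libraries differed from each other by little and lay far above all WT libraries. The means were 79.9 ± 22.0 and 529.4 ± 5.49, a 6.64-fold rise (log2 fold change 2.73, SE 0.19, DESeq2 adjusted p = 2.95e-44), and 2.52 on the log2 scale without WT replicate 1.

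Tlr4 (ENSMUSG00000039005.13, chr4:66827584-66930284, plus strand), the receptor for bacterial lipopolysaccharide, moved the other way. Its normalized counts were 2463, 2901 and 2684 in WT and 1884, 1906 and 1771 in Pbrm1 cKO. All Pbrm1 cKO libraries lay below all WT libraries, and WT replicate 1 was the lowest WT library here too. The means were 2683 ± 219 and 1854 ± 72.9, so that Pbrm1 cKO was at 69.1% of WT (log2 fold change -0.53, SE 0.10, DESeq2 adjusted p = 9.75e-07). The call is lost where a change of at least 1.5-fold is required.

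Per length, Tlr2 was 0.0412, 0.0589 and 0.0642 of Tlr4 in WT and 0.516, 0.509 and 0.558 of Tlr4 in Pbrm1 cKO. Tlr4 remained the more abundant receptor in every library, and the gap narrowed. The log2 ratio differed by 3.29 (two-sided exact permutation p = 0.1, adjusted 0.13).

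The co-receptors of Tlr2 and Tlr4 were chosen after their values were seen. Tlr1, which pairs with Tlr2 for triacylated lipopeptides, had normalized counts of 6.41, 24.4 and 20.5 in WT and 132.2, 106.3 and 88.2 in Pbrm1 cKO (log2 fold change 2.67, SE 0.38, DESeq2 adjusted p = 9.19e-11). Tlr6, the alternative partner of Tlr2, was at 37.7 ± 2.68 and 58.3 ± 14.5 and was not called (adjusted p = 0.126). Cd14, which hands ligands to both receptors, was higher (log2 fold change 0.94, SE 0.21, adjusted p = 4.72e-05), whereas Ly96, the protein with which Tlr4 binds lipopolysaccharide, was at 83.8 ± 13.3 and 88.9 ± 16.4 (adjusted p = 0.859).

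**Figure D4:**
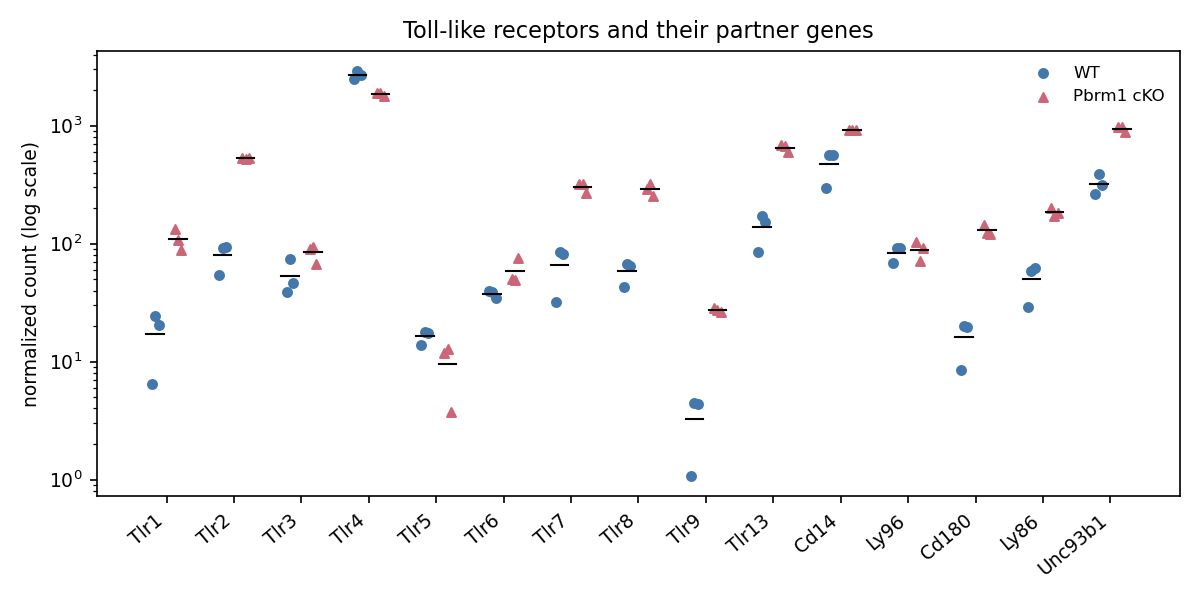
Normalized count (log axis) of Toll-like receptors and partner genes in the 3 WT libraries (circles) and the 3 Pbrm1 cKO libraries (triangles), with bars at the group means. Tlr4 is the most abundant receptor in every library and lower in Pbrm1 cKO, while Tlr1, Tlr2, Tlr7, Tlr8, Tlr9 and Tlr13 are higher without overlap.

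Both feedback inhibitors of NF-kB rose. Nfkbia (ENSMUSG00000021025.8, chr12:55489410-55492647, minus strand), the inhibitor that holds NF-kB in the cytoplasm, had normalized counts of 2275, 1912 and 2760 in WT and 3642, 3792 and 3793 in Pbrm1 cKO. The groups did not overlap. The means were 2315 ± 425 and 3742 ± 86.6 (1.62-fold, log2 fold change 0.69, SE 0.13, DESeq2 adjusted p = 2.47e-06).

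Tnfaip3 (ENSMUSG00000019850.11, chr10:19000910-19015657, minus strand), a ubiquitin-editing enzyme that shuts off signaling from TNF and Toll receptors, had normalized counts of 238.4, 265.2 and 290.8 in WT and 590.0, 568.1 and 550.8 in Pbrm1 cKO. Both groups were tight, and every Pbrm1 cKO library was far above every WT library. The means were 264.8 ± 26.2 and 569.6 ± 19.6 (2.15-fold, log2 fold change 1.11, SE 0.13, DESeq2 adjusted p = 2.66e-15). Per length, the ratio of Nfkbia to Tnfaip3 was 32.3 to 42.7 in WT and 27.7 to 30.9 in Pbrm1 cKO, a log2 difference of -0.40 (two-sided exact permutation p = 0.1, adjusted 0.13).

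To compare levels between genes, counts were divided by gene length and expressed as TPM, the share of all transcripts. Nfkbia was the most abundant of the 10 transcripts in every library, at 218 to 323 TPM in WT and 494 to 513 TPM in Pbrm1 cKO. Tlr4 came next in WT at 85.7 to 95.7 TPM, followed by Il1r1 at 35.4 to 51.3 TPM. In Pbrm1 cKO this order was exchanged, with Il1r1 at 84.3 to 96.4 TPM above Tlr4 at 66.8 to 75.4 TPM. Il1a, Il1b, Il1rn, Tnf, Tnfaip3 and Tlr2 followed in WT between 1.57 and 24.6 TPM, with ranges that overlapped except that Tlr2 (3.50 to 5.82 TPM) lay below Tnfaip3 (6.38 to 7.59 TPM). In Pbrm1 cKO these 6 spread out, from Tlr2 at 37.3 to 38.9 TPM over Il1rn at 19.2 to 24.6 TPM, with Tnf (14.0 to 19.2 TPM) and Tnfaip3 (16.0 to 18.2 TPM) overlapping, down to Il1a and Il1b at 7.07 to 9.49 TPM. Il33 stayed at or below 0.532 TPM in all libraries.

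Other genes of the pathway were taken from lists of known components, which were also chosen with earlier results of these data known. Of 119 such genes, 110 were tested, and 56 were higher and 8 lower (58.2% called, beside 31.1% of all genes), with a median log2 fold change of 0.62 beside -0.001 for all genes. The highest medians were those of the Toll receptors and their co-receptors (1.56) and of the inflammasome (1.20), and the lowest that of adaptors and kinases (0.21).

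**Figure D5:**
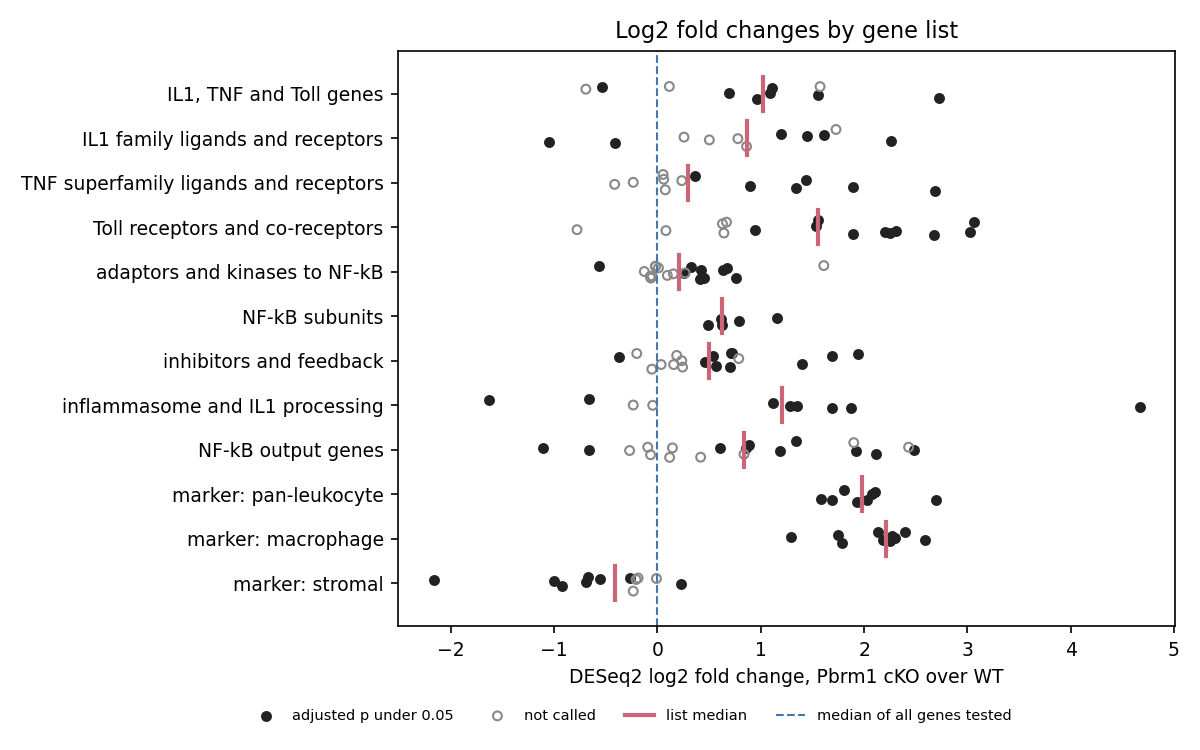
DESeq2 log2 fold change (Pbrm1 cKO over WT) of each tested gene, by list, with called genes as filled and other genes as open circles, red bars at the list medians and a dashed line at the median of all genes. Toll receptors lie at a median of 1.56, macrophage markers at 2.22 and stromal markers at -0.41.

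Among Toll receptors and co-receptors, 10 of 15 tested genes were higher and 5 were not called, with a median log2 fold change of 1.56. Those with the lowest adjusted p were receptors for microbial nucleic acid or their chaperone. Tlr8 was at 58.1 ± 13.3 and 287 ± 32.8 normalized counts (log2 fold change 2.31, DESeq2 adjusted p = 2.18e-24). Tlr13, which detects bacterial ribosomal RNA, was at 137 ± 45.5 and 650.3 ± 48.9 (2.25, adjusted p = 6.02e-24). Unc93b1, which carries these receptors to endosomes, was at 322 ± 64.0 and 944 ± 48.5 (1.55, adjusted p = 1.43e-22). Tlr7 and Tlr9, also endosomal and chosen after their values were seen, were higher. Tlr7 had a log2 fold change of 2.20 (SE 0.28), and Tlr9 was low, with raw counts of 1, 4 and 4 in WT and 29, 34 and 28 in Pbrm1 cKO (DESeq2 adjusted p = 3.67e-05). Tlr3, the endosomal receptor for double-stranded RNA, also chosen after its values were seen, was not called (0.67, DESeq2 adjusted p = 0.0873) and its groups overlapped, although it was called higher without WT replicate 2 (adjusted p = 0.0156). The summed macrophage markers, with a ratio of 4.74 between the groups, moved in the same direction as this list, and a link between them was not tested.

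In the IL1 family, 4 of 11 tested genes were higher and 2 lower, with a median of 0.86. Leaving out single libraries left 0 (without Pbrm1 cKO replicate 1) or 1 (without WT replicate 1 or 2 or Pbrm1 cKO replicate 2 or 3) of the genes lower. Il1rl2, the receptor for IL36, had means of 228 ± 15.8 and 521.5 ± 24.1 (log2 fold change 1.19, DESeq2 adjusted p = 1.63e-17). Il18bp, a secreted decoy for IL18, rose by 1.61 and Il18r1, the ligand-binding chain of the IL18 receptor, by 2.26 on the log2 scale. Il18 itself, chosen after its values were seen, was low, at 9.75 ± 1.99 and 26.7 ± 4.62 (DESeq2 adjusted p = 0.0149), and its call was lost without WT replicate 2, Pbrm1 cKO replicate 1 or Pbrm1 cKO replicate 3 (adjusted p = 0.0739, 0.113 and 0.0600).

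In the TNF superfamily, 6 of 12 tested genes were higher and 6 were not called, with a median of 0.30. Without WT replicate 1, Tnfsf10, a ligand of death receptors named after its values were seen, was called lower. Adam17, the protease that sheds TNF from the cell surface, rose to 1612 ± 48.8 from 868 ± 19.7 (log2 fold change 0.89, DESeq2 adjusted p = 2.12e-20). Tnfrsf1b, the second TNF receptor, rose from 839 ± 262 to 2271 ± 96.5 (1.44, adjusted p = 4.70e-13), and Tnfrsf11a, the receptor for RANK ligand, rose by 1.89 on the log2 scale. The main signaling receptor Tnfrsf1a, chosen after its values were seen, was at 1097 ± 81.5 and 1144 ± 102 (log2 fold change 0.06, SE 0.11, adjusted p = 0.759).

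Downstream of the receptors, of 20 adaptors and kinases, 8 were higher and 1 lower, with a median of 0.21. Leaving out Pbrm1 cKO replicate 1 left 4 of them higher, and leaving out WT replicate 2 or Pbrm1 cKO replicate 2 left 5. Myd88 had means of 540 ± 46.0 in WT and 913.5 ± 14.1 in Pbrm1 cKO (log2 fold change 0.76, DESeq2 adjusted p = 2.82e-10), and Tirap, which brings Myd88 to Tlr2 and Tlr4, rose by 0.64. Ikbkg, the regulatory subunit of the IKK complex, fell by 0.56 on the log2 scale (adjusted p = 4.23e-07). All 5 NF-kB subunits were higher, with Nfkb2 at 0.79, Nfkb1 at 0.63 and Relb at 0.61, and with Rel at 1.15 and Rela at 0.49, these last 2 named to complete the family.

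Of 18 other inhibitors and feedback genes, 9 were higher and 1 lower, with a median of 0.50. The lower gene, Cyld, a deubiquitinase named after its values were seen, lost its call without WT replicate 1 or 2 or Pbrm1 cKO replicate 1 or 3, and in DESeq2 with TMM size factors (adjusted p = 0.0515) or without a filter (0.0547). Tnip3, a partner of Tnfaip3, rose to 99.9 ± 1.09 from 26.1 ± 9.83 (log2 fold change 1.94, DESeq2 adjusted p = 1.11e-08). Zc3h12a, a nuclease that degrades inflammatory mRNA, rose by 1.69, and Birc3, a ubiquitin ligase of the TNF receptor complex, rose by 0.72.

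Among 10 genes of the inflammasome and of IL1 processing, 6 were higher and 2 lower. Casp1, which cleaves the IL1 beta precursor, rose by 1.29 and Pycard, the adaptor that recruits it, by 1.35. Casp4, which senses cytosolic lipopolysaccharide, fell by 1.63 on the log2 scale, from 133 ± 41.3 to 42.8 ± 6.18 normalized counts (DESeq2 adjusted p = 5.90e-07), and the other lower gene was Capn1, a protease that cleaves the IL1 alpha precursor (-0.67, named after its values were seen). Nlrp3, chosen after its values were seen, was higher (1.12, adjusted p = 0.00568), a call lost without Pbrm1 cKO replicate 1 (adjusted p = 0.0522).

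Genes that NF-kB is known to induce did not move as a block. Of 19 tested, 8 were higher, 2 lower and 9 not called, the lower ones being Ptgs2 and the neutrophil-attracting chemokine Cxcl5 (log2 fold change -1.11, named after its values were seen). Saa3, an acute phase protein, and Mmp9, a matrix protease, rose by 2.11 and 1.93 on the log2 scale. Ptgs2, the inducible cyclooxygenase of uterine prostaglandin synthesis, fell to 10130 ± 371.5 from 16040 ± 1332 (log2 fold change -0.66, DESeq2 adjusted p = 2.32e-11). Leaving out Pbrm1 cKO replicate 2 left 4 genes of this list called higher, and leaving out any 1 library but WT replicate 1 left 1 called lower, since Cxcl5 lost its call. Cxcl5 had normalized counts of 57.7, 206.4 and 221.6 in WT and 67.1, 75.9 and 82.6 in Pbrm1 cKO, so the groups overlapped, and its adjusted p was 0.0179 with all libraries and 0.0526 to 0.157 in those 5 fits (DESeq2). With all libraries, Cxcl5 was not called by edgeR (adjusted p = 0.0559) or limma voom (adjusted p = 0.0637).

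Several of the genes are neighbours in the genome. Il1a and Il1b lie within 71.5 kb on chromosome 2, and neither was called. Il1rn ends a stretch of 198.3 kb on the same chromosome that holds 5 family genes with a count, 104948.1 kb from Il1a. Il36a of this cluster was not called (raw counts of 1 to 15 in WT and 13 to 26 in Pbrm1 cKO). Il1r1 belongs to a cluster of 6 receptor genes that spans 477.6 kb of chromosome 1, and its members moved in both directions. Il1r1, Il1rl2 and Il18r1 rose, while Il18rap, the accessory chain of the IL18 receptor, fell by 1.05 on the log2 scale (DESeq2 adjusted p = 0.00832), a call lost without WT replicate 1, Pbrm1 cKO replicate 1 or Pbrm1 cKO replicate 2 (adjusted p = 0.0600, 0.0850 and 0.0695). Il1rl1, the receptor for IL33, was at 389, 1240 and 1256 in WT and 1717, 1748 and 1779 in Pbrm1 cKO, and was not called by DESeq2 with all libraries (log2 fold change 0.86, adjusted p = 0.198). It was called higher by DESeq2 without WT replicate 1 (0.49, adjusted p = 6.76e-07) and by limma voom with all libraries (1.05, adjusted p = 0.00872). Il1r2, the decoy receptor, was not called.

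Next to Tnf, within 10.9 kb of chromosome 17, lie Ltb and Lta. Ltb had raw counts of 2, 0 and 3 in WT and 13, 17 and 9 in Pbrm1 cKO (DESeq2 adjusted p = 0.0201), and this call was not kept without WT replicate 2 (adjusted p = 0.0963) or without Pbrm1 cKO replicate 1 or 2, where the gene was not tested. Lta had at most 1 count in any library.

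For the 9 genes other than Il33, whose mean was below 20 normalized counts, the gene with the most similar profile was sought among 12672 genes, by the root mean square difference of log2 values over the 6 libraries after subtraction of the WT mean. Tlr4 was closest to Gatm (difference 0.0364), Nfkbia to Clk3 (0.0400), Tnfaip3 to Dtx3l (0.0419), Il1r1 to Tns3 (0.0469) and Il1rn to Dok2 (0.0568). Less close profiles were found for Tlr2 with Pik3r5 (0.124), Tnf with Pparg (0.148), Il1a with F11r (0.182) and Il1b with Fzd4 (0.323). No 2 of these genes had the same nearest profile.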

How the data were processed

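Per the labels and the study's methods, the authors used cutadapt for trimming and HISAT2 for mapping of single-end reads to GRCm38, and featureCounts 1.6.4 with the reverse-stranded setting on GENCODE mouse release 18. The counts deposited are raw, per gene and library, beside the gene length. Reads that map to several places or overlap several genes are left out by default, which affects close paralogs. Library preparation is given as random and poly(T) priming with depletion in the labels and as poly(A) purification in the methods. Of 54232 genes, 28552 had a count, and 54079 identifiers (99.7%) were named from GENCODE release 21.

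Differences between 3 WT and 3 Pbrm1 cKO samples were tested with the Wald test of DESeq2 1.42.0 under R 4.3.3, with its default size factors and filtering and no covariate, and p-values were adjusted over all genes tested. Alternatives used edgeR 4.0.16 and limma 3.58.1. Counts of 3 or fewer in all libraries of a group were taken as the limit of detection. Ratios used 0.5 added counts and exact permutation tests. Data were simulated for 28552 genes with the mean levels of these libraries and a fixed spread shared by all genes. In them, DESeq2 recovered 25 of 64 genes changed by 0.5, 62 of 69 changed by 1 and 67 of 67 changed by 2 on the log2 scale, with 12 false calls. That spread was not estimated from these libraries, so the simulation does not show how many changes were missed here.

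The genes and lists were chosen with earlier results of these data known. Named besides the 10 genes are Pbrm1, up to 3 genes per pathway list with the lowest adjusted p at a mean normalized count of at least 20, up to 2 genes per marker list with the highest mean, cluster neighbours and the nearest profiles. Genes named outside this rule are identified.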

Additional observations from a re-analysis of the deposited data

How the results depend on the processing

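Counts of calls and the log2 fold changes were recomputed under 14 alternatives: edgeR, TMM size factors in DESeq2, a minimum mean count of 10, no filter, limma voom fitted with 1 spread per group, the replicate number as a block, a test for changes beyond 0.58 on the log2 scale at an adjusted p of 0.1, the study's thresholds, and each library left out in turn. Il33 was tested in 5 of them and Ltb in 8. The cause of the changes listed here was not tested. Il1rn, Tlr2 and Tnfaip3 kept their direction and call in all of them. The test against 0.58, at its adjusted p of 0.1, called 699 genes higher and 563 lower, 3 of the 10 genes higher and 0 lower, and it lost Il1r1 (0.96), Nfkbia (0.69), Tnf (1.09) and Tlr4 (-0.53). The study's thresholds, applied as a filter to the DESeq2 fit of all libraries, called 1665 genes higher and 1452 lower. They lost Tlr4 (-0.53), which left 0 of the 10 genes lower. Both counts over all genes are well above those that the paper reports at the thresholds it names. The counts of the test against 0.58 lay closer to the paper's, and how the paper applied its thresholds was not determined. With 1 library left out, the counts ranged from 1928 to 2915 higher and from 1806 to 2648 lower over all genes, and from 5 to 6 higher and 1 to 2 lower over the 10 genes. In those fits the log2 fold change ranged from -0.35 to 0.46 for Il1a, from -1.12 to 0.27 for Il1b and from 0.73 to 1.41 for Tnf. Of 834 values of 60 other named genes, 763 kept direction and side of the threshold, 56 lost and 8 gained a call, and 7 reversed, all of them in genes not called in the DESeq2 fit of all libraries. Tnfsf10 reversed to 0.321 with limma voom and 0.196 with the replicate block. With 1 library left out Tnfsf10 ranged from -0.748 to 0.352, F11r ranged from -0.278 to 0.421, Ly96 from -0.047 to 0.224 and Tnfrsf1a from -0.006 to 0.121. The 4 ratios kept their direction in all 7 of their alternatives.

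Same-numbered libraries correlated at 0.114, -0.052 and 0.003 in their deviations from the group means over 10986 genes, and differently numbered ones at -0.081 to 0.113. These values show no pairing by replicate number, but so few libraries cannot exclude one. With the replicate block, 2175 genes were higher and 1828 lower, 6 and 1 of the 10 genes remained called, and Il1a was at 0.37, Il1b at -0.34, Il1r1 at 0.98, Il1rn at 1.61, Tnf at 1.20, Nfkbia at 0.71, Tnfaip3 at 1.11, Tlr2 at 2.75 and Tlr4 at -0.53, with Il33 not tested. Among the other named genes, the block ended the calls of Il18 (1.46, adjusted p = 0.0948), Il1rap (-0.413, 0.0746), Cyld (-0.375, 0.109) and Gatm (-0.517, 0.0525). Il33, Ltb and Lta had few counts, which limits what can be said of them.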
